A study of Homo sapiens with 9 samples.

Results

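The genes of the small RNA pathway, which process microRNAs and carry both microRNAs and transfected siRNAs to their targets, were followed through an siRNA experiment. They are 10 of the 23368 genes in the count table, picked out by symbol and chosen with earlier results of these data known. The 10 are DROSHA, DGCR8, XPO5, DICER1, TNRC6A, TNRC6B and the 4 Argonaute genes. The Argonaute genes stand under their older symbols EIF2C1, EIF2C2, EIF2C3 and EIF2C4 (now AGO1 to AGO4). All 10 passed the filter on low counts and were tested, with counts of 162 to 4434 per library. The cells were A673, an established Ewing sarcoma line that carries the EWS-FLI1 fusion. All of them were grown with Zeocin, blasticidin and a serum approved for tetracycline-regulated systems, and all received an siRNA at 13 nM with a lipid reagent, so no group lacked an siRNA. The 3 groups differed in that siRNA, which was a scrambled sequence, siLRWD1-5 or siLRWD1-6. The last 2 are directed against LRWD1, whose protein works at the origins of DNA replication. Each group held 3 libraries from independent experiments, made from RNA taken 48 h after transfection.

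MicroRNAs are cut from long transcripts in the nucleus by the RNase III enzyme DROSHA together with its RNA-binding partner DGCR8, and the resulting hairpins leave the nucleus with exportin 5, the product of XPO5. In the cytoplasm DICER1 cuts the hairpin to a short duplex, and an Argonaute protein keeps a single strand as its guide. A synthetic siRNA enters at that last step, because it is already a short duplex. Argonaute 2, from EIF2C2, is the family member known for cutting a fully matched target. The TNRC6 proteins bind Argonaute and recruit the enzymes that shorten the poly(A) tail and remove the cap of the target.

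Some pathway genes hold a microRNA hairpin or matches to a microRNA seed, and these sequences are given here, from RefSeq and GRCh38. They give letters and positions only, and regulation through them was not tested. The capitals mark the seed, bases 2 to 8 from the 5′ end. The DGCR8 transcript itself holds a microRNA hairpin, whose mature strands lie in a coding exon of the gene on the plus strand at chr22:20086072-20086093 and chr22:20086112-20086129.
hsa-miR-1306-5p: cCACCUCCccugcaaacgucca
hsa-miR-1306-3p: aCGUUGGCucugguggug
The hairpins of miR-103a and miR-107, which share a seed and are known regulators of DICER1, lie in introns of the pantothenate kinase genes PANK1, PANK2 and PANK3.
hsa-miR-103a-3p: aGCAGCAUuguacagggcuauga
hsa-miR-107: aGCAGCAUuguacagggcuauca
The complement of that seed, ATGCTGC, occurs 5 times in the 4270 bases of the longest annotated 3′ UTR of DICER1. The windows around these matches, at bases 1034, 1635, 2839, 4110 and 4162 of the UTR, are written on the transcript's strand with the match in capitals.
DICER1 match 1: acacctaaaatATGCTGCagattttataat
DICER1 match 2: tgcttcgtggaATGCTGCatttatatgtaa
DICER1 match 3: cagtcctaactATGCTGCgttttataatag
DICER1 match 4: tttaccatcacATGCTGCagctgtttttta
DICER1 match 5: atacagtaatcATGCTGCagaaatttgcag

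Total counts ranged from 11971179 to 15674452 per library. LRWD1, the targeted gene, had 49.1, 54.6 and 49.3 CPM (the count relative to the TMM-scaled library total) with the scrambled siRNA, 10.6, 11.3 and 10.4 with siLRWD1-5, and 6.55, 8.11 and 8.55 with siLRWD1-6. Scrambled replicate 2 stood apart from the other scrambled libraries, with a chi-square per gene of 29.6 and 25.0 against them, whereas all other pairs within a group gave 3.03 to 5.68. Of the Ewing sarcoma markers, 7 of 8 passed the filter on low counts. The markers had a summed level of 2543 to 3394 CPM in scrambled, 1872 to 2160.3 with siLRWD1-5 and 2358 to 2579 with siLRWD1-6. CD99 did not pass, with 3.70 CPM at most, and whether reads of CD99 were lost in mapping or counting was not tested. Most of each sum was CCND1, at 1494 to 2827 CPM over the 9 libraries. The next highest marker, NPY1R, had 101 to 203 CPM, so differences between these sums mainly reflect CCND1. The 12 markers of other cell types summed to 3.41 CPM at most, and CD3E and MYOD1 were at 0 in all libraries. In such bulk samples, fewer cells of a type and less RNA per cell cannot be told apart.

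Of the 10 pathway genes, 4 changed with siLRWD1-5 and 1 changed with siLRWD1-6. With siLRWD1-5, EIF2C1 and TNRC6A rose and DICER1 and XPO5 fell, and with siLRWD1-6 TNRC6A rose. Genes are called higher or lower at an adjusted p under 0.05, from edgeR's quasi-likelihood test of all 13648 genes with enough counts and the Benjamini-Hochberg method over all of them. Over all of these, 38.8% were called with siLRWD1-5 and 16.6% with siLRWD1-6, so both counts of pathway genes lie near the background. The median size of the log2 fold change, regardless of sign, was 0.15 for the 10 genes with siLRWD1-5 against 0.26 for all genes tested, and 0.15 against 0.17 with siLRWD1-6. Libraries of the 2 groups did not overlap for 4 of the 10 genes with siLRWD1-5, against 47.8% of all genes (23.2% higher and 24.6% lower), and for 3 of the 10 with siLRWD1-6, against 33.7% of all genes (16.4% higher and 17.3% lower).

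**Figure D1:**
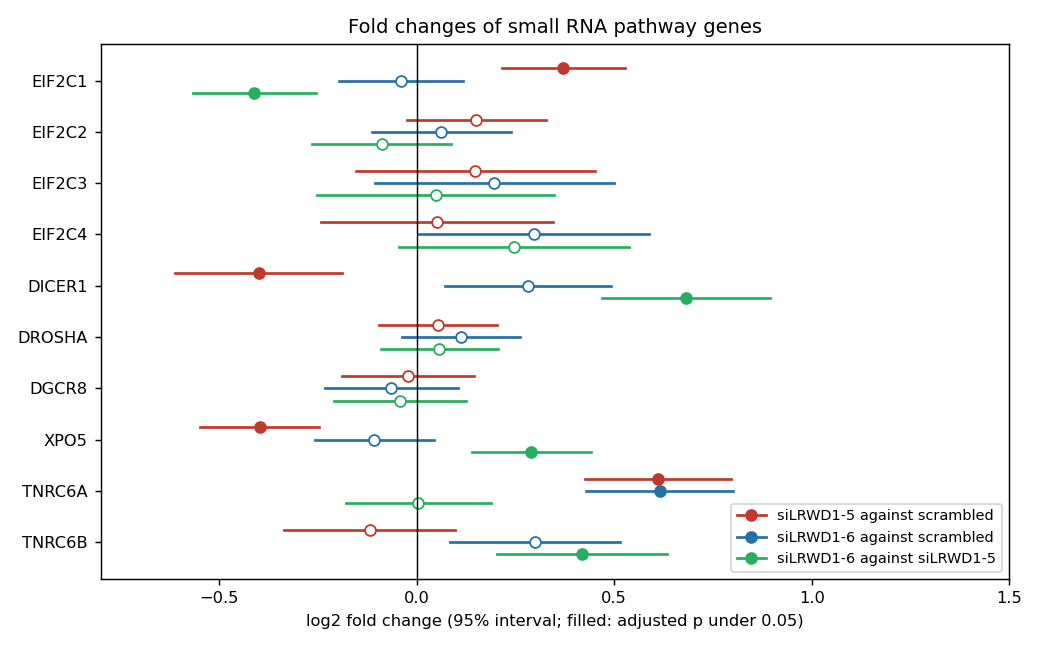
Log2 fold change of each of the 10 genes (horizontal axis) with its 95% interval, for siLRWD1-5 against scrambled, siLRWD1-6 against scrambled and siLRWD1-6 against siLRWD1-5. Filled points have an adjusted p under 0.05. TNRC6A sits at 0.61 against scrambled for both siRNAs and at 0.00 between them, whereas DICER1 sits at -0.40 and 0.28 against scrambled and at 0.68 between them.

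Both comparisons against scrambled share the same control libraries, so the siRNAs were also compared with each other. That difference is not taken against the scrambled libraries. They were still part of the fit and share in the estimate of the spread behind its p-values. There, 4 of the 10 genes differed, where 43.4% of all genes tested did (22.4% higher and 20.9% lower with siLRWD1-6). DICER1, XPO5 and TNRC6B were higher with siLRWD1-6 than with siLRWD1-5, and EIF2C1 was lower. The libraries did not overlap for 6 of the 10 genes, the other 2 being EIF2C4 and DROSHA, where 61% of all genes tested had no overlap (30.7% higher and 30.3% lower).

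The level of each gene relative to the others was taken per length, as CPM per kilobase of all annotated exons of the gene, and is described without a test. Both lengths used are from GENCODE 29, whereas the counts were made on hg19 with an annotation that is not given. A gene with annotated bases that were not counted or not transcribed would appear too low with either length, and this was not tested. The order within the 5 most abundant genes depended on the length used. In the scrambled libraries the genes for processing and export and TNRC6A stood highest: XPO5 at 19.5 ± 1.58 CPM per kilobase (SD, n = 3), DROSHA at 17.4 ± 1.60, DICER1 at 15.6 ± 2.32, TNRC6A at 13.4 ± 1.71 and DGCR8 at 12.1 ± 1.15. Each of these overlapped with its neighbour in the order. The Argonaute genes and TNRC6B followed, each below the one before with no overlap of libraries. EIF2C2 had 5.47 ± 0.469 CPM per kilobase, EIF2C1 4.53 ± 0.359, TNRC6B 3.28 ± 0.521, EIF2C4 2.35 ± 0.437 and EIF2C3 0.695 ± 0.101. With either LRWD1 siRNA TNRC6A came first, at 20.5 CPM per kilobase with siLRWD1-5 and 20.6 with siLRWD1-6. DICER1 was lowest of these 5 genes with siLRWD1-5, at 11.8 CPM per kilobase, overlapping with DGCR8 at 11.97. With siLRWD1-6 it came next after TNRC6A, at 18.9 CPM per kilobase, overlapping with DROSHA at 18.9 and XPO5 at 18.1. With the longest transcript as length, the order in the scrambled libraries was XPO5 at 31.0 CPM per kilobase, DROSHA at 25.6, TNRC6A at 20.6, DGCR8 at 18.9 and DICER1 at 18.5, where TNRC6A overlapped with DGCR8 and DGCR8 with DICER1. With that length DICER1 came after XPO5 and DROSHA with siLRWD1-6, at 22.5 CPM per kilobase against 28.8 and 27.7, with no overlap between DICER1 and DROSHA. With siLRWD1-5 it was at 14.1, below DGCR8 at 18.6 with no overlap. TNRC6A stayed first with both LRWD1 siRNAs and the 5 other genes stayed below these 5 in every group with either length.

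**Figure D2:**
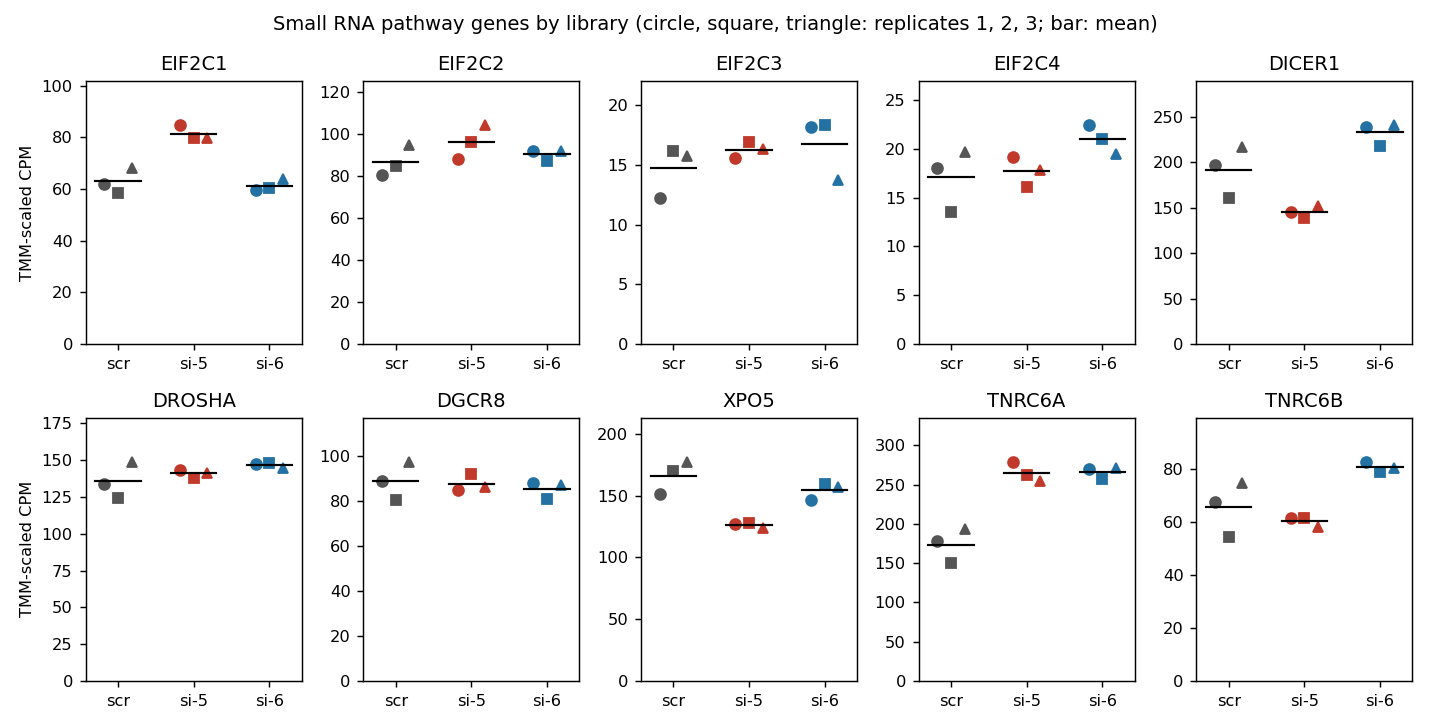
CPM after TMM scaling (vertical axis, from 0) of each of the 10 genes in each library, by siRNA group, where circle, square and triangle are replicates 1, 2 and 3 and the bar is the mean. The libraries of both LRWD1 siRNAs lie above all scrambled libraries for TNRC6A, between 254 and 279 CPM against 149.8 to 193, while the siLRWD1-5 libraries lie lowest for DICER1 and XPO5.

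The genes for nuclear processing, DROSHA and DGCR8, did not pass the test in any of the 3 comparisons. DROSHA stood at 134, 124 and 149 CPM with the scrambled siRNA, 144, 138 and 141 with siLRWD1-5, and 148, 148 and 145 with siLRWD1-6. The LRWD1 siRNA libraries lay inside the scrambled range. The log2 fold changes against scrambled were 0.05 (95% interval -0.09 to 0.20) and 0.11 (-0.04 to 0.26), and neither passed the test, with adjusted p = 0.559 and 0.296. DGCR8 stood at 88.8, 80.5 and 97.3 CPM with the scrambled siRNA, 84.7, 91.7 and 86.2 with siLRWD1-5, and 87.7, 80.6 and 86.8 with siLRWD1-6, again all inside the scrambled range. Its log2 fold changes were -0.02 (-0.19 to 0.15) and -0.06 (-0.23 to 0.10), with adjusted p = 0.848 and 0.623. For both genes the intervals exclude a change of 2-fold with either siRNA. The microRNA loci inside DGCR8, MIR1306 and MIR3618, had 0 counts in every library. They share 85 and 88 bases with DGCR8 exons on the same strand. Reads there may be lost or given to DGCR8, so these counts do not measure the loci. No microRNA level was measured in this study.

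The export receptor gene XPO5 fell with siLRWD1-5. XPO5 stood at 151, 169.6 and 177 CPM with the scrambled siRNA, 127, 128 and 124 with siLRWD1-5, and 146, 159 and 157 with siLRWD1-6. All siLRWD1-5 libraries lay below all others, while siLRWD1-6 and scrambled overlapped. XPO5 decreased under siLRWD1-5 by 0.40 log2 units (SE 0.07), or 1.32-fold, with adjusted p = 0.000888. With siLRWD1-6 the log2 fold change was -0.11 (SE 0.07, 95% interval -0.26 to 0.04, adjusted p = 0.325). The siRNAs differed by 0.29 (SE 0.07), XPO5 being 1.22-fold higher with siLRWD1-6, with adjusted p = 0.00525. XPO5 shares 348 exon bases with POLR1C, an RNA polymerase subunit gene on the opposite strand with 514 to 810 counts per library, and reads of that stretch cannot be told apart without strand.

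DICER1 showed the largest difference between the siRNAs among the 10 genes. It stood at 197, 161 and 217 CPM with the scrambled siRNA, 145, 139 and 152 with siLRWD1-5, and 239, 218 and 241 with siLRWD1-6. The siLRWD1-5 libraries were the 3 lowest and the siLRWD1-6 libraries the 3 highest, so no groups overlapped. DICER1 decreased under siLRWD1-5 by 0.40 log2 units (SE 0.10), which is 1.32-fold lower, with adjusted p = 0.00697. With siLRWD1-6 the log2 fold change was 0.28 (SE 0.10, 95% interval 0.07 to 0.49), and the adjusted p was 0.0686, above the threshold. Between the siRNAs DICER1 was 1.6-fold higher with siLRWD1-6, a log2 difference of 0.68 (SE 0.10, adjusted p = 0.000189). The siLRWD1-6 change passed the test when single scrambled libraries were left out: it was 0.18 with adjusted p = 0.0377 without scrambled replicate 2 and 0.38 with adjusted p = 0.022 without scrambled replicate 3.

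The PANK genes, whose introns hold the microRNAs with seed matches in DICER1, are given beside it because of the sequences above, and PANK1, as well as PANK3 with siLRWD1-6, was chosen after its values were seen. PANK2 had 49.6 ± 6.06 CPM (SD, n = 3) in the scrambled libraries, 25.6 ± 1.38 with siLRWD1-5 and 44.1 ± 1.5 with siLRWD1-6. It fell 1.94-fold with siLRWD1-5 (adjusted p = 1.73e-05, log2 fold change -0.96, SE 0.09) and had a log2 fold change of -0.17 with siLRWD1-6 (adjusted p = 0.234, or -0.26 with adjusted p = 0.0125 without scrambled replicate 2). PANK3 had 88.9 ± 11.5, 72.2 ± 3.93 and 104 ± 0.141 CPM in the same order. It fell by 0.30 log2 units with siLRWD1-5 (adjusted p = 0.0185), a call that was lost without scrambled replicate 3 (adjusted p = 0.0707) or siLRWD1-5 replicate 3 (0.075). Its log2 fold change with siLRWD1-6 was 0.22 (adjusted p = 0.104, or 0.31 with adjusted p = 0.0326 without scrambled replicate 3). PANK1 had 12.3 ± 3.76, 10.1 ± 0.425 and 14.6 ± 0.202 CPM, and neither siRNA passed the test for it, with adjusted p = 0.254 and 0.428, although siLRWD1-5 did without scrambled replicate 2 (log2 fold change -0.52, adjusted p = 0.000809). The level of a host transcript is not the level of the microRNA in its intron.

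The seed matches were counted in the longest 3′ UTR of each gene on the transcript's strand, for 12562 of the genes tested. Of the 1638 genes with a 3′ UTR of 0.8 to 1.25 times the length of that of DICER1, 30.5% held ATGCTGC at least once and 0.183% held it as often as DICER1 did. EIF2C2 also held 5, where 56.9% of the 144 genes of like length held at least 1 and 1.39% held as many. EIF2C1 held 3, as did TNRC6B, and 5.5% and 7.63% of the genes of like length held as many. EIF2C4 held 2, where 5.72% of genes of like length held as many, and EIF2C3 held 1, where 62.8% did. No match was found in DROSHA, DGCR8, XPO5 or TNRC6A, where 9.48%, 15.03%, 13.7% and 48.8% of the genes of like length held at least 1. CTACCTC, the complement of the let-7 seed, was found 2 times in EIF2C2, where 15.97% of genes of like length held as many, and 1 time each in EIF2C1 and EIF2C3, where 48% and 53.5% did. It was found in none of the other pathway genes, for which 6.81% to 46.6% of genes of like length held it. Such a match is a description of letters, not of a site in use.

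Among the Argonaute genes, EIF2C1 rose with siLRWD1-5 and no other change passed the test against scrambled. EIF2C1 stood at 62.1, 58.4 and 68.3 CPM with the scrambled siRNA, 84.8, 79.8 and 79.6 with siLRWD1-5, and 59.6, 60.4 and 63.8 with siLRWD1-6. All siLRWD1-5 libraries lay above all others, and the scrambled and siLRWD1-6 libraries overlapped. EIF2C1 rose 1.29-fold with siLRWD1-5 (adjusted p = 0.00171, log2 fold change 0.37, SE 0.07). With siLRWD1-6 the log2 fold change was -0.04 (SE 0.07, 95% interval -0.20 to 0.12, adjusted p = 0.763). EIF2C1 was 1.33-fold lower with siLRWD1-6 than with siLRWD1-5 (log2 difference -0.41, SE 0.07, adjusted p = 0.000752).

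EIF2C2, the gene of the slicing Argonaute, stood at 80.4, 84.7 and 94.8 CPM with the scrambled siRNA, 88.1, 96.1 and 104 with siLRWD1-5, and 91.9, 87.2 and 92.1 with siLRWD1-6. The 3 groups overlapped. Its log2 fold changes were 0.15 (95% interval -0.03 to 0.33, adjusted p = 0.162) with siLRWD1-5 and 0.06 (-0.11 to 0.24, adjusted p = 0.653) with siLRWD1-6. The difference between the siRNAs was -0.09 (-0.26 to 0.09, adjusted p = 0.403).

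EIF2C3 and EIF2C4 were the least abundant of the family and had the widest intervals. EIF2C3 stood at 12.3, 16.1 and 15.7 CPM with the scrambled siRNA, 15.6, 16.9 and 16.3 with siLRWD1-5, and 18.2, 18.3 and 13.7 with siLRWD1-6. Its groups overlapped, with log2 fold changes of 0.15 (-0.15 to 0.45, adjusted p = 0.426) and 0.20 (-0.11 to 0.50, adjusted p = 0.376). EIF2C4 stood at 18.01, 13.5 and 19.7 CPM with the scrambled siRNA, 19.2, 16.1 and 17.9 with siLRWD1-5, and 22.4, 21.04 and 19.5 with siLRWD1-6. The siLRWD1-6 libraries lay above the siLRWD1-5 libraries and overlapped with scrambled. The log2 fold changes of EIF2C4 were 0.05 (-0.24 to 0.34, adjusted p = 0.795) and 0.30 (0.00 to 0.59, adjusted p = 0.157), and that between the siRNAs was 0.25 (-0.04 to 0.54, adjusted p = 0.157).

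The make-up of the Argonaute transcripts was described as each gene's share of the summed CPM per kilobase of the 4 genes. The shares of different genes carry the same limit of the lengths as the levels above. In the scrambled libraries EIF2C2 held 41.96 ± 1.83% (SD, n = 3), EIF2C1 34.8 ± 0.643%, EIF2C4 17.9 ± 2.33% and EIF2C3 5.35 ± 0.843%. The share of EIF2C1 was 35.5, 34.5 and 34.2% in the scrambled libraries, 40.6, 38.8 and 36.9% with siLRWD1-5, and 30.6, 31.9 and 33.5% with siLRWD1-6. It was highest in the siLRWD1-5 libraries and lowest in the siLRWD1-6 libraries, with no overlap of groups. The share of EIF2C2 was 40.1 ± 2.79% with siLRWD1-5 and 41.4 ± 0.946% with siLRWD1-6, overlapping with the scrambled libraries. That of EIF2C4 was 16.1 ± 1.32% and 20.9 ± 1.28%, and that of EIF2C3 5.08 ± 0.268% and 5.73 ± 0.889%. The summed CPM of the 4 genes, not divided by length, was 173, 173 and 199 in the scrambled libraries, 208, 209 and 218 with siLRWD1-5, and 192, 187 and 189 with siLRWD1-6.

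**Figure D3:**
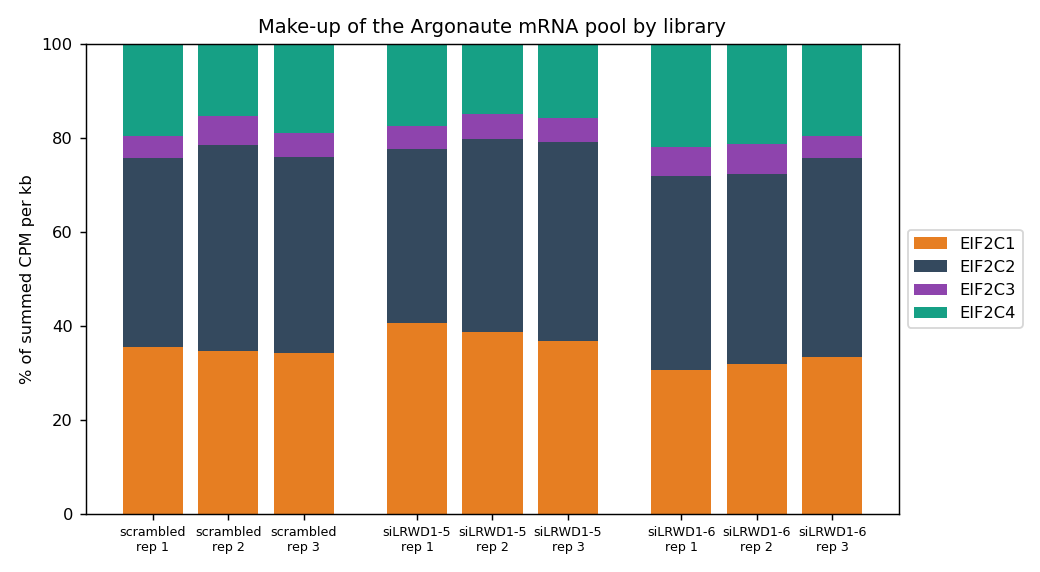
Share of each Argonaute gene (vertical axis, percent of the summed CPM per kilobase of EIF2C1 to EIF2C4) in each of the 9 libraries. EIF2C2 is the largest part in the scrambled group, at 41.96% on average, and EIF2C1 takes 36.9 to 40.6% in the siLRWD1-5 libraries against 30.6 to 33.5% in the siLRWD1-6 libraries.

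For each Argonaute gene the genes with the most similar course over the 9 libraries were found, as the smallest root mean square difference of log2 CPM around each gene's mean, among 10060 genes with a mean of at least 5 CPM. For EIF2C1, whose own deviations had a root mean square of 0.195, these were AKAP1 at 0.0359 and ATL3 at 0.0464. For EIF2C2, with deviations of 0.104, they were ZC3H4 at 0.0555 and POLRMT at 0.0565. TRIM39 at 0.0926 and MTX1 at 0.0961 came closest to EIF2C3, whose deviations were 0.173. PHLPP2 at 0.0573 and CCNG1 at 0.0658 came closest to EIF2C4, whose deviations were 0.203.

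Of the TNRC6 genes, TNRC6A rose with both siRNAs, as none of the other 9 genes did. It stood at 178, 149.8 and 193 CPM with the scrambled siRNA, 279, 262 and 254 with siLRWD1-5, and 271, 257 and 271 with siLRWD1-6. All 6 LRWD1 siRNA libraries lay above all 3 scrambled libraries. TNRC6A rose 1.53-fold with siLRWD1-5 (adjusted p = 0.000198, log2 fold change 0.61, SE 0.08). It also rose 1.53-fold with siLRWD1-6 (0.61, SE 0.08, adjusted p = 0.000654). The log2 difference between the siRNAs was 0.00 with a 95% interval of -0.18 to 0.19 (adjusted p = 0.974). Genes higher with both siRNAs made up 3.63% of all genes tested, and the comparisons share their control libraries.

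TNRC6B, its paralog, stood at 67.9, 54.3 and 74.8 CPM with the scrambled siRNA, 61.7, 61.5 and 58.2 with siLRWD1-5, and 82.99, 79.1 and 80.4 with siLRWD1-6. The siLRWD1-6 libraries lay above all others, and those of siLRWD1-5 lay inside the scrambled range. The log2 fold change was -0.12 with siLRWD1-5 (SE 0.10, adjusted p = 0.369) and 0.30 with siLRWD1-6 (SE 0.10, 95% interval 0.08 to 0.51, adjusted p = 0.0589). TNRC6B was 1.34-fold higher with siLRWD1-6 than with siLRWD1-5 (log2 difference 0.42, SE 0.10, adjusted p = 0.00505). Without scrambled replicate 2, TNRC6B passed in both comparisons and in opposite directions, with -0.24 (adjusted p = 0.00642) and 0.19 (adjusted p = 0.0355), and without scrambled replicate 3 it passed with siLRWD1-6 (0.40, adjusted p = 0.0183).

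The remaining TNRC6 gene, TNRC6C, had 26.2 ± 2.71 CPM (SD, n = 3) in scrambled, 32.5 ± 3.62 with siLRWD1-5 and 24.9 ± 1.34 with siLRWD1-6. It rose with siLRWD1-5 (log2 fold change 0.31, adjusted p = 0.0357), but this call was lost without scrambled replicate 1 or 2 or siLRWD1-5 replicate 1 or 3, with adjusted p of 0.0518 to 0.141. With siLRWD1-6 its log2 fold change was -0.08 (adjusted p = 0.689).

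Several of the 10 genes varied more among the scrambled libraries than within the siRNA groups. The coefficient of variation of TNRC6B was 15.9% in scrambled against 3.23% with siLRWD1-5 and 2.47% with siLRWD1-6, and that of DICER1 was 14.9% against 4.61% and 5.42%. Scrambled replicate 2 was the lowest scrambled library for both. Relative to the other scrambled libraries, this library was lower in 8 of the 10 genes, by a median log2 difference of -0.20, against 47.9% of all genes tested and a median of 0.02. The differences were -0.47 for EIF2C4, -0.39 for TNRC6B, -0.37 for DICER1 and -0.31 for TNRC6A, with only XPO5 at 0.05 and EIF2C3 at 0.21 on the other side. Without it, 2 of the 10 genes were higher and 3 lower with siLRWD1-5, and 3 were higher with siLRWD1-6 (TNRC6A, DICER1 and TNRC6B). Over all genes tested without it, 24% were higher and 25% lower with siLRWD1-5, and 15.3% were higher and 13.3% lower with siLRWD1-6.

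Around these 10 genes, 7 lists of other pathway genes held 109 genes that were tested. With siLRWD1-5, 20.2% of them were higher and 30.3% lower, against 18.5% and 20.3% of all genes tested. With siLRWD1-6, 16.5% were higher and 6.42% lower, against 8.81% and 7.78%. The median log2 fold change of the 109 genes was -0.05 and 0.05 in these comparisons, against -0.01 and -0.02 over all genes. No test was made of the lists as sets. Shares over all genes were taken for the full fits and for those without scrambled replicate 2. List counts with another library left out have no such share beside them.

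Of the partners of DROSHA and of nuclear export, 3 of 16 rose and 6 fell with siLRWD1-5, with a median log2 fold change of -0.08. DDX5, an RNA helicase bound to DROSHA, fell 1.82-fold (log2 fold change -0.86, adjusted p = 7.82e-06), while its paralog DDX17 rose 1.31-fold (0.39, adjusted p = 0.000394). NCBP1, of the nuclear cap-binding complex, fell by 0.50 and ILF2 by 0.53 in log2 units. With siLRWD1-6, 3 rose and 1 fell, and the median was 0.03. The gene that fell was NCBP2, by 0.28 (adjusted p = 0.00568), and it was among those lower with siLRWD1-5 too (-0.21, adjusted p = 0.00999). ADARB1, an editing enzyme of double-stranded RNA, moved in opposite directions: it fell with siLRWD1-5 (-0.58, adjusted p = 0.000552) and rose with siLRWD1-6 (0.53, adjusted p = 0.00235), and the direct difference was 1.11 (adjusted p = 3.73e-06). The other 2 genes higher with siLRWD1-6, LIN28B and KHSRP, lost that call when any siLRWD1-6 library or scrambled replicate 1 was left out, with adjusted p of 0.0511 to 0.102. Both were also higher with siLRWD1-5, LIN28B by 0.95 (adjusted p = 0.00248) and KHSRP by 0.33 (adjusted p = 0.000552) in log2 units.

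Of the 23 chaperones and Argonaute partners, 5 rose and 11 fell with siLRWD1-5, with a median of -0.12. FXR1, an RNA-binding relative of the fragile X protein, fell 1.65-fold (log2 fold change -0.72, adjusted p = 3.58e-06), and HSP90AA1, a chaperone for Argonaute loading, fell 1.45-fold (-0.53, adjusted p = 1.66e-05). WTIP rose 1.67-fold (0.74, adjusted p = 6.13e-05). With siLRWD1-6, 4 rose and 1 fell, with a median of -0.02. FMR1 rose by 0.43 (adjusted p = 0.00109) and SND1 by 0.27 (adjusted p = 0.00517) in log2 units. HSPA8, the constitutive heat shock cognate, was the gene that fell (-0.46, adjusted p = 0.0185), a call lost without siLRWD1-6 replicate 1 (adjusted p = 0.0794), and without scrambled replicate 1 the genes that fell were 2. With siLRWD1-5 FMR1 was also higher (0.24, adjusted p = 0.0123) and HSPA8 also lower (-0.52, adjusted p = 0.00448), while SND1 was not called. P4HB rose with both siRNAs, by 0.38 and 0.28.

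Among the 29 silencing effectors that act after TNRC6, 5 rose and 7 fell with siLRWD1-5, with a median of -0.02. PAN3 and CNOT6, of the enzymes that shorten the poly(A) tail, fell 1.96-fold (log2 fold change -0.97, adjusted p = 8.65e-05) and 1.64-fold (-0.72, adjusted p = 3.17e-05). The count of genes higher was 3 without scrambled replicate 1 or siLRWD1-5 replicate 1, and that of genes lower was 4 without scrambled replicate 3 or siLRWD1-5 replicate 2. With siLRWD1-6, 10 rose and 2 fell, with a median of 0.16. That count of genes higher ranged from 4 to 13 when single libraries were left out: 5 without scrambled replicate 1, 13 without scrambled replicate 2, 7 without scrambled replicate 3, and 5, 4 and 6 without siLRWD1-6 replicates 1, 2 and 3. CNOT6 rose with siLRWD1-6 (0.42, adjusted p = 0.00305), and its direct difference between the siRNAs was 2.2-fold (1.14, adjusted p = 8.67e-07). XRN1, the exonuclease that degrades decapped RNA, rose with both, by 0.46 (adjusted p = 0.000305) and 0.55 (adjusted p = 0.000308). LSM14B fell 1.97-fold with siLRWD1-6 (-0.98, adjusted p = 6.08e-06) and less with siLRWD1-5 (-0.19, adjusted p = 0.0376).

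Of the 12 genes for tailing, trimming and turnover of small RNAs, 5 fell with siLRWD1-5 and 1, PNPT1, rose, with a median of -0.16. The nucleotidyl transferase genes PAPD4 and PAPD5 fell by 0.60 (adjusted p = 0.000976) and 0.46 (adjusted p = 0.000418), and the deadenylase PARN by 0.43 (adjusted p = 0.000208) in log2 units. PNPT1 lost its call without scrambled replicate 1 or 3 or siLRWD1-5 replicate 1 or 2 (adjusted p of 0.0856 to 0.153), 2 genes rose without scrambled replicate 2, and 3 fell without siLRWD1-5 replicate 2. With siLRWD1-6 the count was 0 in either direction by edgeR, at an unadjusted p under 0.05, and by DESeq2 and limma-voom, with a median of 0.07. Of the 15 PIWI pathway genes 3 were tested. With siLRWD1-5 the count was 0 by edgeR, and 1 gene was higher at an unadjusted p under 0.05, by DESeq2 and limma-voom, and by edgeR without scrambled replicate 2. PLD6, a mitochondrial protein of that pathway, fell with siLRWD1-6 (-0.71, adjusted p = 0.035), a call lost without siLRWD1-6 replicate 1 or 3 (adjusted p = 0.13 and 0.11), with no filter on low counts (0.0604) and with only the groups compared (0.0898).

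The list named for sensors of double-stranded RNA also holds the adaptor MAVS and TLR7, a receptor for single-stranded RNA. Among the lists it differed most between the siRNAs by its median, 0.52 with siLRWD1-5 and 0.02 with siLRWD1-6, for 12 genes. With siLRWD1-5, 6 rose and 2 fell. TLR7 rose 2.8-fold (log2 fold change 1.49, adjusted p = 0.00154) and IFIH1, the cytoplasmic sensor MDA5, 1.77-fold (0.82, adjusted p = 0.000596). The level of TLR7 was low, at 2.15 ± 0.444 CPM (SD, n = 3) in scrambled and 6.00 ± 0.518 with siLRWD1-5. MAVS, the adaptor downstream of IFIH1, fell 1.31-fold (-0.38, adjusted p = 0.000571). With siLRWD1-6, 0 rose by edgeR, at an unadjusted p under 0.05, and by DESeq2 and limma-voom, and 2 fell. Without siLRWD1-6 replicate 1, 1 of these genes rose and 1 fell. OAS3 rose with siLRWD1-5 (0.57, adjusted p = 0.000904) and fell with siLRWD1-6 (-0.39, adjusted p = 0.0228), with a direct difference of -0.96 (adjusted p = 2.04e-05). The decrease was not called without scrambled replicate 3 or siLRWD1-6 replicate 1 or 2 (adjusted p of 0.0682 to 0.105).

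Of 16 tested transcripts that host microRNAs, 2 rose and 3 fell with siLRWD1-5, with a median of 0.01, and 1 rose with siLRWD1-6, with a median of 0.15. PANK2 and PANK3 were 2 of the 3 that fell, and MEG3 was the other (-0.40, adjusted p = 0.0125), a call lost without siLRWD1-5 replicate 1 (adjusted p = 0.0561). Without scrambled replicate 2 the counts were 3 higher and 7 lower with siLRWD1-5 and 3 higher and 3 lower with siLRWD1-6. Over all genes tested without it, 24% were higher and 25% lower with siLRWD1-5, and 15.3% higher and 13.3% lower with siLRWD1-6. No host transcript was called higher with siLRWD1-5 by edgeR without replicate 1 or 3 of that siRNA, and 3 were higher with siLRWD1-6 without scrambled replicate 1. SREBF2, the host of miR-33a, was the gene higher with siLRWD1-6 (0.52, adjusted p = 0.04), and it lost that call without any siLRWD1-6 library or scrambled replicate 3 (adjusted p of 0.0602 to 0.115), with library size only (0.0718), with no filter (0.0662) and with only the groups compared (0.0799).

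**Figure D4:**
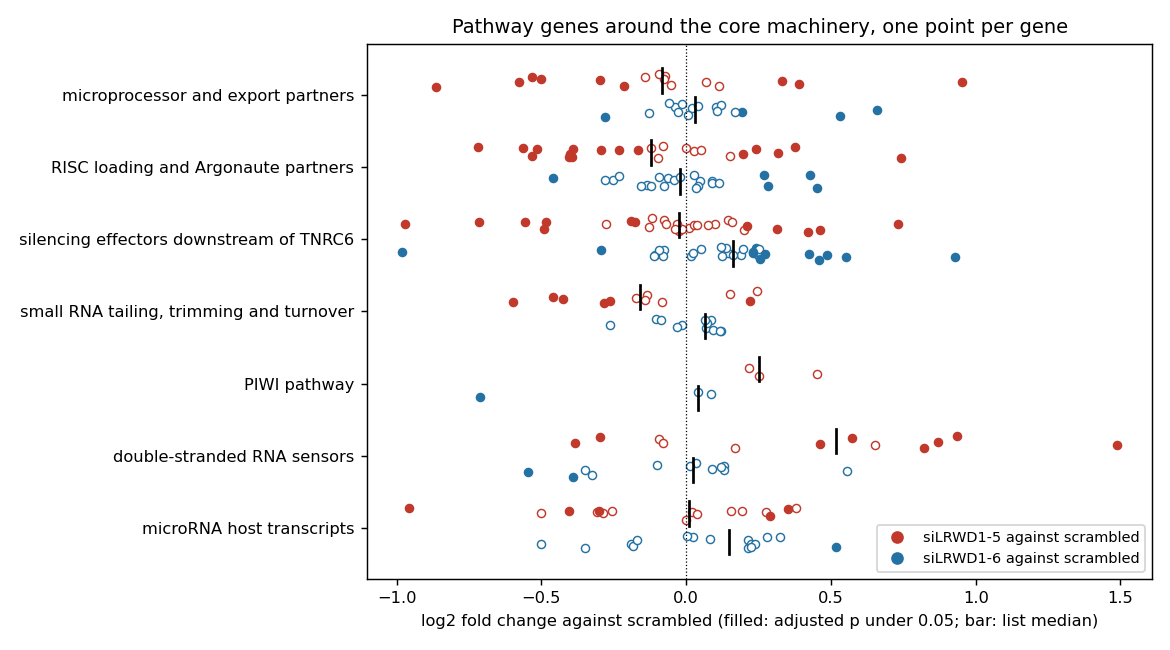
Log2 fold change against scrambled (axis in log2 units) of each tested gene of the 7 pathway lists, for siLRWD1-5 and siLRWD1-6, with the list median as a bar and filled points for genes past the threshold. The list of double-stranded RNA sensors, which also holds TLR7 and MAVS, has a median of 0.52 with siLRWD1-5 and 0.02 with siLRWD1-6. The silencing effectors have -0.02 and 0.16.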

How the data were processed

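RNA sequencing of A673 cells gave 9 libraries in 3 groups of 3, taken from the labels. The authors deposited 1 table of whole-number counts for gene symbols, not normalized. The submitters' processing notes name HTSeq 0.5.4p3, TopHat2 2.0.10, bcl2fastq 1.8.4 and the hg19 build. Which annotation, counting mode and strand setting were used is not given in the sources used here. Libraries were made with TruSeq RNA v2, a kit without strand marking, per the labels' protocols. Reads of overlapping or antisense genes and of near-identical copies may therefore be lost or misassigned.

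Counts were filtered with filterByExpr, which kept 13648 of 23368 genes and at least 99.92% of each library, scaled by TMM and fitted with edgeR 4.0.16 (robust quasi-likelihood, group as the only term, all 9 libraries) in R 4.3.3. P-values were adjusted by Benjamini-Hochberg over all genes tested. Standard errors came from the F statistic. The pathway genes and the 7 lists were chosen with earlier results of these data known. Named from the lists were up to 4 called genes with the smallest p per comparison, and genes alone or nearly alone in their list or direction. The result of 1 gene open to naming is not reported here. For each Argonaute gene the 2 nearest genes were named, leaving out members and uncharacterised, antisense and small RNA loci.

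Lengths (exon union), 3′ UTRs and coordinates came from GENCODE 29 on GRCh38, and microRNA sequences from RefSeq on GRCh38. Like-numbered libraries deviated together between scrambled and siLRWD1-5 (r = 0.25, 0.37 and 0.11 across genes). Between scrambled and siLRWD1-6 r was 0.28, 0.24 and 0.05, and between the siRNAs 0.17, 0.23 and 0.09. Unlike-numbered libraries gave -0.33 to 0.14, -0.25 to 0.08 and -0.22 to 0.07 in the same order. In both comparisons with scrambled, r of the libraries numbered 3 was thus below the highest of the unlike-numbered pairs. The reported fits have no term for the library numbers. They entered as pairs only in the alternative with a replicate block.

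On counts simulated for siLRWD1-5 against scrambled (13529 genes), the fit recovered 52.9% of genes changed by 0.5 on the log2 scale. It recovered 81.0% at 1 and 95.8% at 2, while unchanged genes made up 6.21% of the calls. Whether these rates hold for the measured libraries, where 38.8% of genes were called with siLRWD1-5, was not tested. The alternatives tried were DESeq2 1.42.0, limma-voom (limma 3.58.1), RLE factors, library size only, no filter on low counts, a filter of 1 CPM or more in 3 libraries, the replicate block, only the groups compared, and each library left out in turn. List counts without scrambled replicate 2 were added after seeing the data. Python 3.11.15 was used for summaries.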

Additional observations from a re-analysis of the deposited data

How the results depend on the processing

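All 9 calls of the 10 pathway genes against scrambled and between the siRNAs kept their direction and their call in all 14 alternatives of each. TNRC6A ranged from 0.51 to 0.69 with siLRWD1-5 and from 0.53 to 0.70 with siLRWD1-6. The count of pathway genes higher with siLRWD1-6, 1 as reported, was 2 with no filter on low counts (TNRC6B added, 0.31, adjusted p = 0.0389), and 3 with DESeq2 (DICER1 0.29, adjusted p = 0.0467, and TNRC6B 0.31, adjusted p = 0.0397). It ranged from 1 to 3 when single libraries were left out. With the replicate block it was also 3 (DICER1 0.29, adjusted p = 0.01, and TNRC6B 0.31, adjusted p = 0.0339), and the block changed no other call of the 10 genes. With siLRWD1-5, 2 to 3 of the 10 genes were lower when single libraries were left out. EIF2C4 was called between the siRNAs (0.25, adjusted p = 0.0406) with only the groups compared. Where single libraries set a call of a list gene, this is given beside it. With only the groups compared, the calls with siLRWD1-5 of PANK3 (adjusted p = 0.0592), TNRC6C (0.0726) and PNPT1 (0.0789) and those with siLRWD1-6 of HSPA8 (0.0515), OAS3 (0.0619), KHSRP (0.0638) and LIN28B (0.07) were lost. With library size only, those of PANK3 (0.0573) with siLRWD1-5 and of KHSRP (0.0573) and LIN28B (0.0543) with siLRWD1-6 were lost, and with no filter that of LIN28B (0.07). The share of EIF2C1 in scrambled was 33.6% with the longest transcript as length.

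The sign of some genes that did not pass the test turned, and the cause was not tested. With library size only, DGCR8 was at 0.029 with siLRWD1-5, and between the siRNAs EIF2C3 was at -0.0205, DROSHA at -0.0114 and TNRC6A at -0.0648. When single libraries were left out, the log2 fold changes with siLRWD1-5 ranged from -0.0862 to 0.16 for EIF2C4, from -0.0049 to 0.12 for DROSHA and from -0.0881 to 0.0454 for DGCR8. With siLRWD1-6 they ranged from -0.0777 to 0.0225 for EIF2C1 and from -0.12 to 0.0054 for DGCR8. Between the siRNAs they ranged from -0.0194 to 0.18 for EIF2C3 and from -0.0245 to 0.0437 for TNRC6A. EIF2C3 and EIF2C4 had the lowest levels and the widest intervals, which limits what their depth can show.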
